A study of Gossypium hirsutum with 12 samples.

Results

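The genes described here were 60 cotton genes whose transcript abundance was higher at 48 h than at 24 h in well-watered root tips and nearly the same at both times in water-stressed root tips. They were 60 of the 70477 genes in the count table. The samples were primary root tips of upland cotton (Gossypium hirsutum, cv. AU90810) from dark-grown seedlings in vermiculite, harvested 24 h or 48 h after transplanting. The vermiculite of well-watered seedlings (WW24 and WW48) had a water potential of -0.02 MPa, and their roots were cut 12 mm from the apex. That of water-stressed seedlings (WS24 and WS48) had -1.0 MPa, and their roots were cut 6 mm from the apex. In both treatments the excised length covered the root elongation zone, and several tips were pooled in each sample. The 4 groups held 3 libraries each, from independent experiments by the study's account, and all 12 were made from 1 cultivar. The study set WS48 against a temporal control of the same age (WW48) and a developmental control of like root length (WW24), and WS24 against WW24 of the same age.

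The members were chosen on read counts divided by the library's total in genes (CPM, the usual scaled count). The log2 ratio of WW48 to WW24, computed on group means with 0.5 CPM added, had to be at least 2, and the same ratio of WS48 to WS24 had to lie within 0.5 of zero. The mean had to reach 5 CPM in WW48 and 1 CPM in WS24 and in WS48, and the lowest WW48 library had to lie above the highest WW24 library. The rule named 5 further genes that were left out. All 12 libraries were thus used in the choice, so the watered rise, the flat stressed level and the difference between them are given below as a description and support nothing. Of 626 genes with such a watered rise, 306 reached 1 CPM in both stressed groups. Of these 306, 242 had a stressed ratio of 0.5 or more, 4 had a ratio of -0.5 or less, and 60 lay between.

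In a growing root, cells are made in the meristem at the tip, expand in the elongation zone and then mature into hair-bearing epidermis, xylem and phloem further from the tip. When soil water is short, the elongation zone shortens and maturation begins closer to the tip. Transcripts of maturing tissue therefore depend in such samples on how far from the apex the cut is made and on how long the root has grown. In root tips of different length, fewer cells of a type and less RNA per cell cannot be told apart. Here the tip length and the water treatment cannot be told apart either.

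Libraries held 6433993 to 11316010 counts in genes, with a median of 10000113. The shallowest was WW48 replicate 2. Levels below are CPM scaled by TMM factors (the trimmed mean of M-values), and differences are log2 fold changes from edgeR's quasi-likelihood test, with Benjamini-Hochberg adjusted p-values over the 43938 genes tested. Calls of higher or lower needed an adjusted p of at most 0.05 together with a log2 fold change of 1 or more in size. All 60 members passed the filter on low counts. Gene lengths were not used, so levels are compared between libraries and never between genes.

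WW48 replicate 2 stood apart from the other WW48 libraries in these genes. The 60 members together made up 1521 CPM in WW48 replicate 1, 4317 CPM in replicate 2 and 1869 CPM in replicate 3. The summed level was 319, 741 and 358 CPM in the WW24 libraries, 480, 418 and 454 CPM in the WS24 libraries, and 490, 632 and 504 CPM in the WS48 libraries. Thus all 3 WW48 libraries lay above all others, and the stressed libraries lay within the range of WW24. Replicate 2 was the highest WW48 library for 60 of 60 members, against 38.9% of all genes tested. It was the highest of all 12 libraries for 59 members (98.3%), against 17.5% of all genes. Its level was 1.27 to 10.8 times the mean of the other WW48 libraries, with a median of 2.59, and at least 2 times that mean for 44 members. Replicate 2 of WW24 leaned the same way: it was the highest WW24 library for 52 members (86.7%), against 46.5% of all genes. Replicate 2 of WS48 was the highest WS48 library for 34 members (56.7%), against 33.1%. This lean was not particular to the members. In the 242 genes with a watered rise and a stressed ratio of 0.5 or more, WW48 replicate 2 was the highest WW48 library for 88.0%. It was the highest of all 12 libraries for 82.6% of them. In the same genes, replicate 2 was the highest WW24 library for 87.2% and the highest WS48 library for 78.9%.

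**Figure D1:**
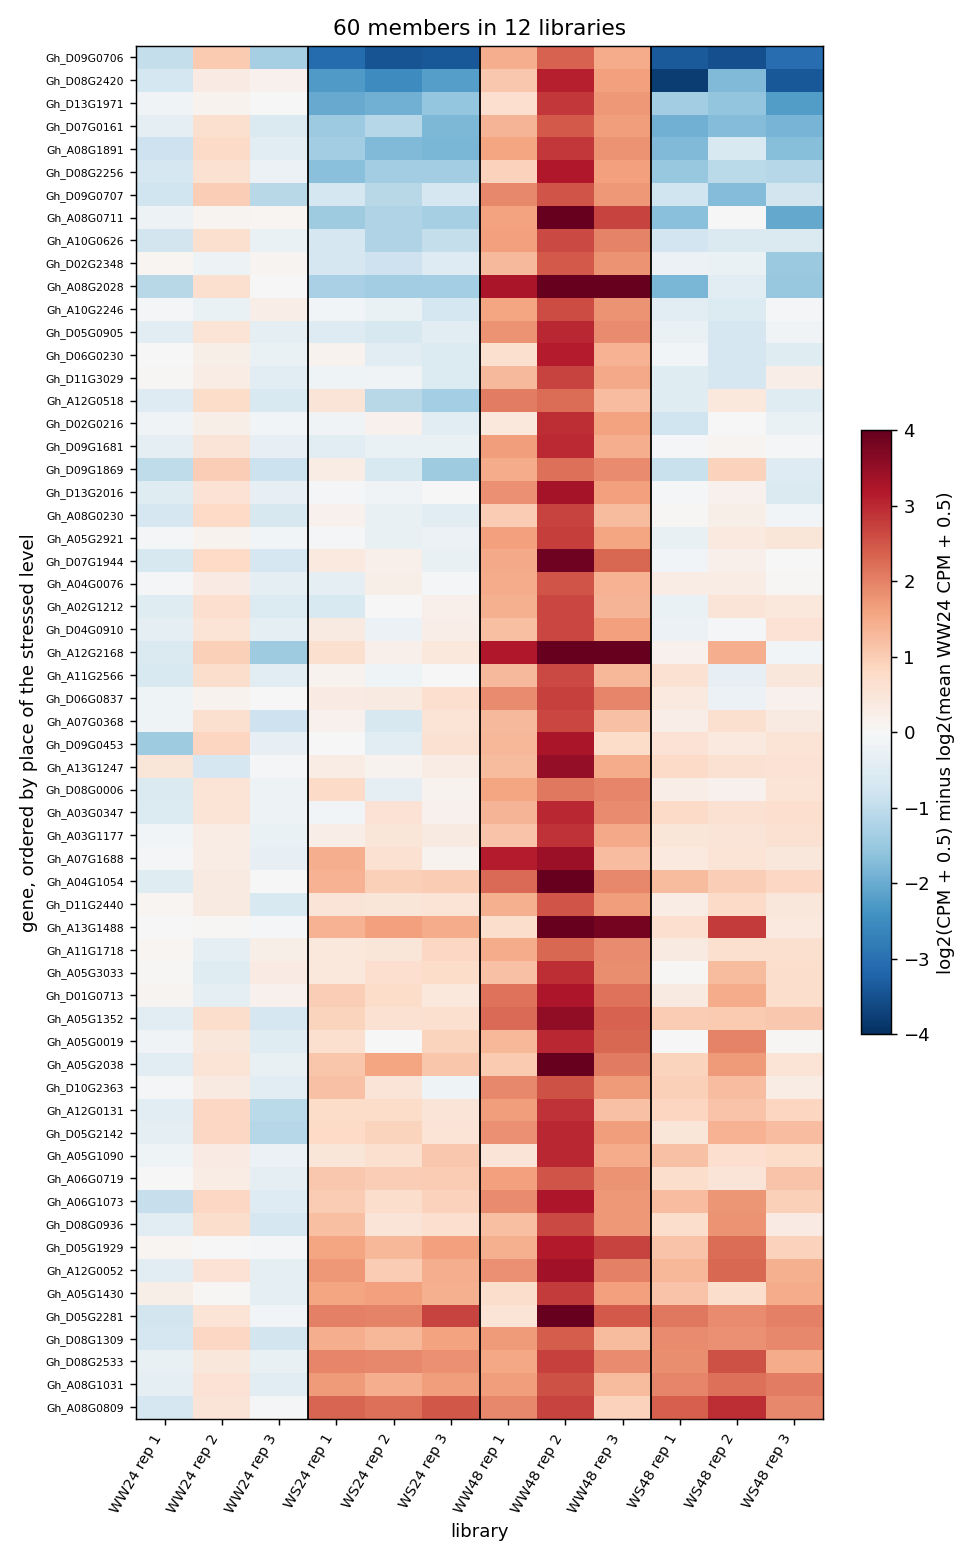
Level of each of the 60 members (lines) in each of the 12 libraries (columns), as log2(CPM + 0.5) minus the log2 of the mean WW24 level + 0.5, on TMM-scaled CPM. Values beyond -4 or 4 have the end colour, and genes are ordered by the place of their stressed level between WW24 and WW48. The WW48 columns are red throughout, with replicate 2 the darkest, and the stressed columns run from blue at the top to red at the bottom.

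Membership rested on that library. Without WW48 replicate 2 the rule found 12 genes, of which 11 were among the 60. Of the 49 members lost, 46 had a watered ratio under 2 and 17 had a mean under 5 CPM. Without replicate 2 the log2 ratio of WW48 to WW24 was 1.19 to 4.48 over the 60 members (median 1.76), against a median of 2.27 with all libraries. Its direction was fixed by the rule, which put every WW48 library above every WW24 library. Membership also moved with other libraries. The rule found 152 genes without WW24 replicate 2, 106 without WW48 replicate 1, 97 without WW48 replicate 3 and 123 without WS48 replicate 2. On TMM-scaled CPM it found 41 genes, 39 of them among the 60. Just inside the limit on the watered ratio lay Gh_A08G0230 and Gh_A04G0076 (both 2.01), and just outside lay Gh_D12G1637 (1.9975), a ribonuclease 1 gene, and Gh_A12G0499 (1.9952). Just inside the limit on the stressed ratio lay Gh_D09G1869 (0.499) and Gh_A06G1073 (0.482), and just outside lay Gh_Sca005244G01 (0.5015) and Gh_D11G0310 (0.505).

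**Figure D2:**
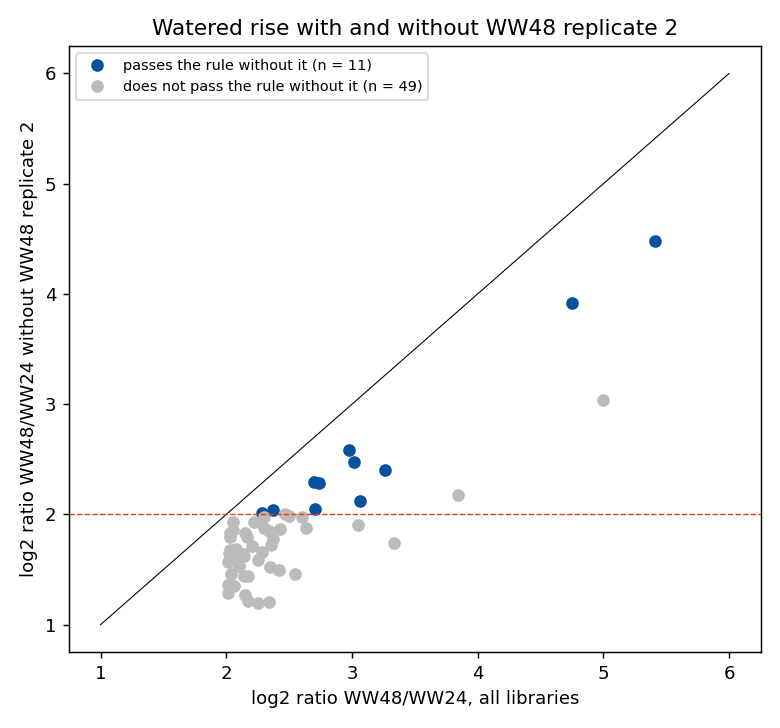
Log2 ratio of WW48 to WW24 (mean CPM + 0.5) of the 60 members with all libraries (x axis) and without WW48 replicate 2 (y axis). The solid line marks equal values and the dashed line the limit of 2. All points lie below the solid line, and the 11 blue points still meet the whole rule.

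The rule fixed that WS24 and WS48 were alike. Apart from the limit of 1 CPM, it did not fix where their shared level lay. A member had to be lower in WS48 than in WW48, higher in WS24 than in WW24, or some of each. The ratios left the split between these free, but the limit of 1 CPM in the stressed groups did not. It left out 320 genes with such a watered rise. It also put members with a WW24 mean under 1 CPM, such as Gh_A13G1488 (0.119), above WW24 under stress. Most members were lower in WS48 than in WW48, and few were higher in WS24 than in WW24. In the temporal comparison, WS48/WW48, 42 of 60 members were lower (70%), against 5.98% of all genes tested, and 0 were higher, against 3.18%. The 2 members with a log2 fold change above 0 there, Gh_A08G0809 and Gh_A08G1031, had edgeR adjusted p-values of 0.424 and 0.799, and DESeq2 called 0 higher too. In the comparison at 24 h, WS24/WW24, 9 members (15.0%) were higher, against 3.75% of all genes, and 5 (8.33%) were lower, against 4.93%. The median log2 fold change of the members was -1.99 in WS48/WW48 (range -5.95 to 0.54) and 0.31 in WS24/WW24 (range -3.63 to 3.44), where the medians of all genes tested were -0.01 and 0.00. These comparisons share their libraries with the rule, which asked for low WW24 and high WW48 values, so the shares over all genes are a scale and not a reference for chance. In 45 members every WS48 library lay below every WW48 library, against 20.7% of all genes, in 18 every WS24 library lay above every WW24 library, against 18.3%, and in 10 every WS24 library lay below, against 14.9%.

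By these calls 41 members were lower in WS48/WW48 and not higher in WS24/WW24, 8 were higher in WS24/WW24 and not lower in WS48/WW48, 1 was both and 10 were neither. These were 68.3%, 13.3%, 1.67% and 16.7% of the members. Over all genes tested the shares were 5.98%, 3.74%, 0.00455% and 90.3%. On a scale where WW24 is 0 and WW48 is 1 in log2 level, the stressed level of the members had a median place of 0.21 (quartiles -0.05 and 0.40). It lay below WW24 in 17 members, between the watered levels in 42 and above WW48 in 1. The median place was 0.07 in the 41 members and 0.83 in the 8. Of the 41 members, 5 were lower in WS24/WW24, and their places ran from -1.53 to 0.40. The remainder of the 41 were not called at 24 h, which does not show that they equalled WW24. In the 8 the stressed level was already higher than WW24 at 24 h, so that a rise blocked by stress does not describe them. Among the 242 genes that rose when watered and had a higher level at 48 h than at 24 h under stress, 99 were lower in WS48/WW48 (40.9%) and the median place was 0.35. These genes were sorted from the members by the stressed ratio, which favours high WS48 values. Their contrast with the members therefore supports nothing.

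**Figure D3:**
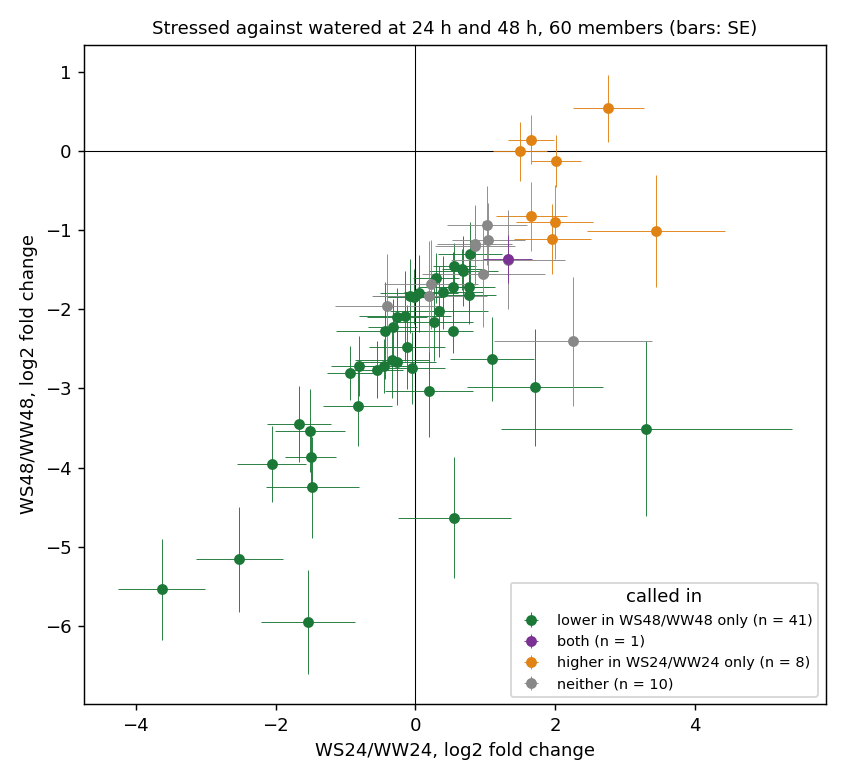
Log2 fold change of stressed over well-watered root tips at 24 h (x axis) and 48 h (y axis) for the 60 members, with standard errors as bars. Colours give the calls: 41 members were lower at 48 h and not higher at 24 h. A further 8 were higher at 24 h and not lower at 48 h, 1 was both and 10 were neither. Of the 41, 5 were lower at 24 h too. All but 2 points lie below zero at 48 h, and the 8 orange points stand at the upper right.

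A function was given for 5 members in the study's supplementary lists, and all 5 were lower in WS48/WW48. Those lists were drawn largely from genes that responded to stress in these same samples, so the presence of these genes in them is not independent evidence of their direction. A pair of members, Gh_A08G1891 and Gh_D08G2256, were listed as glutamate dehydrogenase 3, a mitochondrial enzyme that interconverts glutamate and 2-oxoglutarate with ammonium. The level of Gh_A08G1891 in replicates 1, 2 and 3 was 52.6, 160 and 70.7 CPM in WW24, 35.4, 27.4 and 26.2 in WS24, 282, 670 and 327 in WW48, and 27.2, 61.1 and 28.7 in WS48. All stressed libraries but WS48 replicate 2 lay below every WW24 library. It was lower at both times. The log2 fold change (± SE) was -1.67 ± 0.46 in WS24/WW24 (edgeR adjusted p = 0.0297) and -3.45 ± 0.48 in WS48/WW48 (edgeR adjusted p = 0.000686). The call at 24 h was lost without WW24 replicate 2 or without any single WS24 library (edgeR adjusted p up to 0.107). Gh_D08G2256 had 24.0, 59.1 and 32.4 CPM in WW24, 11.7, 14.3 and 14.5 in WS24, 74.2, 362 and 122 in WW48, and 13.0, 17.9 and 17.2 in WS48. Its stressed libraries lay below all watered ones, and it was lower in WS48/WW48 by -3.53 ± 0.52 (edgeR adjusted p = 0.000937). Its log2 fold change of -1.50 in WS24/WW24 did not pass (edgeR adjusted p = 0.0622). These were the only glutamate dehydrogenase genes with a function in the lists. Their reads may be shared, since genes of the A and D subgenomes can be nearly identical.

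Gh_D08G2420 was listed as peroxidase 2, of the secreted class III peroxidases, which use hydrogen peroxide to oxidise phenolics and cell wall polymers. It had 9.54, 20.2 and 18.0 CPM in WW24, 2.89, 2.39 and 3.04 in WS24, 33.8, 141 and 50.3 in WW48, and 0.67, 4.36 and 1.06 in WS48. Every stressed library lay below every watered one. It was lower in WS24/WW24 by -2.52 ± 0.63 (edgeR adjusted p = 0.0194) and in WS48/WW48 by -5.16 ± 0.66 (edgeR adjusted p = 0.000384). The other peroxidase 2 genes in the lists were lower under stress too, but none of them was higher in WW48/WW24. Gh_D11G2183 had mean levels of 36.7, 6.14, 60.4 and 5.68 CPM in WW24, WS24, WW48 and WS48. Gh_A11G3132 had 180, 51.1, 88.6 and 26.1 CPM and was lower in WW48 than in WW24. Of the class III peroxidase genes in the lists, 23 were tested. In WS24/WW24, 12 were lower and 3 higher, against 4.93% and 3.75% of all genes tested. In WS48/WW48, 14 were lower and 5 higher, against 5.98% and 3.18%. In WW48/WW24, 6 were higher and 2 lower, against 3.53% and 1.26%. Gh_D08G2420 was the only member among these 23. The lists were drawn largely from genes that responded in these samples, so these counts do not describe the family.

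Gh_D13G1971 was listed as plant natriuretic peptide A. In Arabidopsis the protein of that name is a secreted signalling peptide that acts on water and ion balance. The gene had 7.09, 8.75 and 7.71 CPM in WW24, 1.58, 1.72 and 2.33 in WS24, 12.7, 58.8 and 27.6 in WW48, and 2.68, 2.31 and 1.27 in WS48. The stressed libraries lay below all watered ones at both times. It was lower in WS24/WW24 by -2.06 ± 0.50 (edgeR adjusted p = 0.0168) and in WS48/WW48 by -3.95 ± 0.49 (edgeR adjusted p = 0.00028).

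Gh_D09G0706 was listed with a domain of unknown function (DUF506). It had 9.91, 41.3 and 7.43 CPM in WW24, 1.86, 1.34 and 1.42 in WS24, 54.1, 103 and 55.3 in WW48, and 1.44, 1.25 and 1.90 in WS48. It had the lowest place of all members, -1.53, its stressed level lying far below WW24. It was lower in WS24/WW24 by -3.63 ± 0.63 (edgeR adjusted p = 0.00258) and in WS48/WW48 by -5.53 ± 0.64 (edgeR adjusted p = 0.000179), and it kept both calls in all 20 alternative settings. The lists held 7 DUF506 genes, all tested. In WS24/WW24, 5 were lower and 1 higher, against 4.93% and 3.75% of all genes tested. In WS48/WW48, 6 were lower and 1 higher, against 5.98% and 3.18%. In WW48/WW24, 4 were higher, against 3.53%. The lists were drawn largely from genes that responded in these samples, so these counts do not describe the family. Gh_Sca005409G01, which is no member, had mean levels of 11.5, 0.776, 56.3 and 0.913 CPM in WW24, WS24, WW48 and WS48. Its means were likewise high in WW48 and low under stress, but lay under the limit of 1 CPM in the stressed groups. The DUF506 gene that was higher under stress, Gh_D10G2251, had 4.94, 13.3, 4.49 and 10.1 CPM. The ID next in number, Gh_D09G0707, was also a member, the only such neighbours among the 60. It had 7.83, 28.1 and 6.24 CPM in WW24, 8.38, 6.21 and 8.71 in WS24, 54.6, 83.5 and 48.3 in WW48, and 7.85, 3.92 and 8.24 in WS48. Its stressed libraries overlapped WW24, and it was lower in WS48/WW48 alone (log2 fold change -3.22 ± 0.50, edgeR adjusted p = 0.00134).

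**Figure D4:**
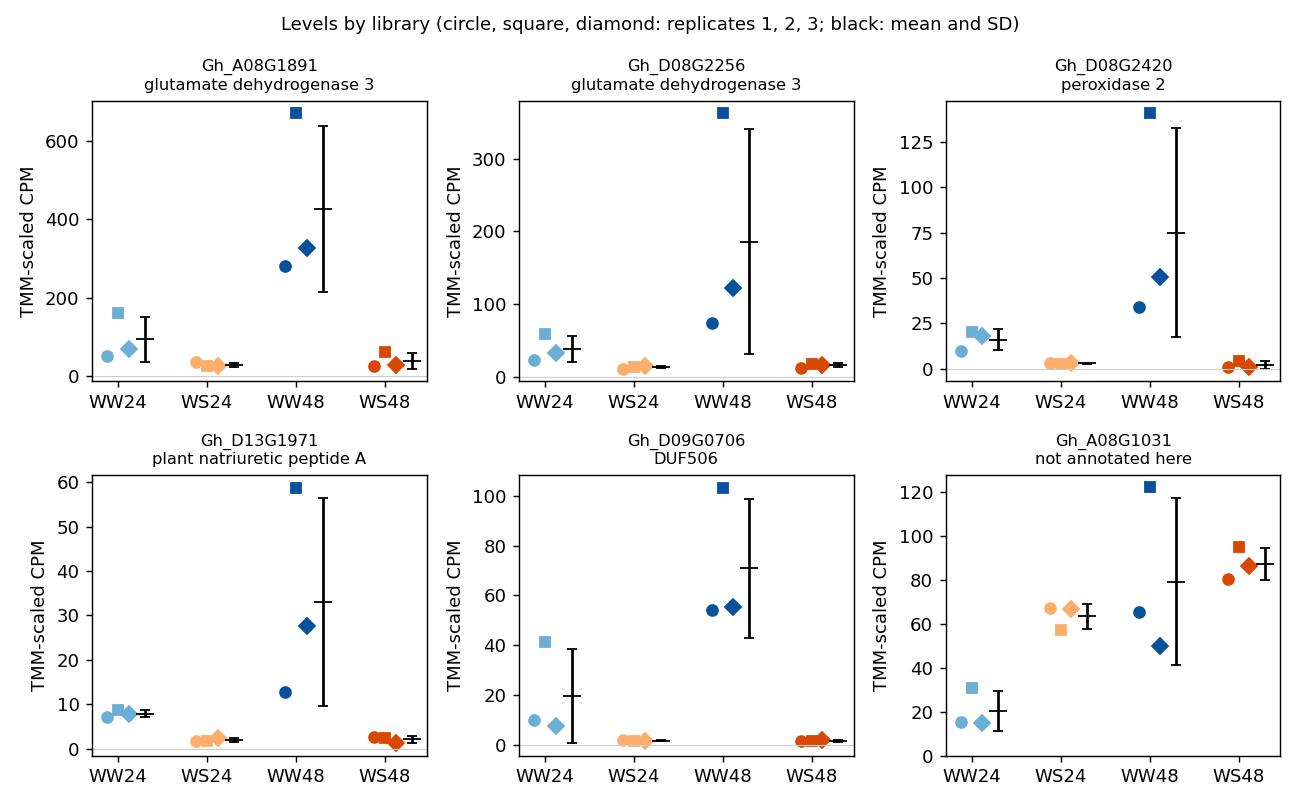
TMM-scaled CPM of 6 members in each library, with the mean and SD of 3 replicates per group in black (linear axes). In the annotated members the stressed libraries lie at or below WW24 and far below WW48, with WW48 replicate 2 (square) the highest. In Gh_A08G1031 the stressed libraries lie above WW24 and within or near the range of WW48.

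Of the annotated members, Gh_D09G0706, Gh_D08G2420 and Gh_D13G1971 were also lower in WS48 than in WW24, as was the unannotated Gh_D07G0161. In these fits 4 members (6.67%) were thus lower against both controls, against 2.16% of all genes tested. That is the criterion by which a decreased differentially accumulated transcript (DAT) is defined. No member was higher against both, against 1.64%. In all, WS48/WW24 gave 4 members lower, against 3.9% of all genes, and 6 higher, against 3.57%. Gh_D07G0161 had 12.7, 26.7 and 11.2 CPM in WW24, 5.87, 7.35 and 4.46 in WS24, 44.4, 95.0 and 54.3 in WW48, and 4.12, 4.72 and 4.33 in WS48. Every stressed library lay below every watered one. It was lower in WS48/WW48 by -3.87 ± 0.38 (edgeR adjusted p = 5.72e-05), in WS48/WW24 by -1.92 ± 0.37 (edgeR adjusted p = 0.0054) and in WS24/WW24 by -1.50 ± 0.36 (edgeR adjusted p = 0.0167). The WS48/WW24 call of Gh_D13G1971 (log2 fold change -1.89 ± 0.49, edgeR adjusted p = 0.0248) was lost without WW24 replicate 3 or any single WS48 library, and that of Gh_D08G2420 without WS48 replicate 3. Without WS48 replicate 3 the members lower in WS48/WW24 numbered 2, where 1208 of 45274 genes tested were lower. Members higher in WS48/WW24 numbered 13 without WW24 replicate 2 (2510 of 45141 genes) and 12 without WW48 replicate 2 (1630 of 44842 genes).

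The other members with the steepest watered rise carried no function in the sources used here. Gh_A12G2168 had 2.69, 8.75 and 1.28 CPM in WW24, 6.89, 4.96 and 5.87 in WS24, 43.5, 348 and 142 in WW48, and 4.88, 12.5 and 3.91 in WS48. Its stressed libraries overlapped WW24 and lay below all WW48 libraries, with a log2 fold change of -4.63 ± 0.77 in WS48/WW48 (edgeR adjusted p = 0.002). Gh_A08G2028 had 2.57, 9.61 and 5.96 CPM in WW24, 2.14, 2.00 and 2.02 in WS24, 62.2, 297 and 114 in WW48, and 1.34, 4.36 and 1.79 in WS48. It gave the members' lowest log2 fold change in WS48/WW48, -5.95 ± 0.66 (edgeR adjusted p = 0.000133). Both genes stayed in the rule without WW48 replicate 2. Gh_A13G1488 did not stay. It had 0.122, 0.143 and 0.0917 CPM in WW24, each value being a single read, 1.12, 1.43 and 1.22 in WS24, 0.513, 47.1 and 8.24 in WW48, and 0.478, 3.83 and 0.317 in WS48. Its WW48 libraries spanned nearly the whole range of the 12, and its call in WS48/WW48 (log2 fold change -3.51 ± 1.11, edgeR adjusted p = 0.0491) was lost in 12 of 20 alternative settings. Gh_A04G1054 had 0.245, 0.861 and 0.55 CPM in WW24, 2.23, 1.53 and 1.62 in WS24, 4.52, 32.9 and 3.47 in WW48, and 2.01, 1.60 and 1.37 in WS48. All stressed libraries lay between the watered groups. Gh_A05G2038 had 0.122, 0.717 and 0.183 CPM in WW24, 1.30, 2.00 and 1.32 in WS24, 1.23, 18.2 and 3.03 in WW48, and 1.05, 2.23 and 0.739 in WS48. Its stressed libraries overlapped WW48, and it passed neither test.

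Of the members with the highest means in WW48, Gh_A10G0626 had 24.9, 65.6 and 34.5 CPM in WW24, 26.2, 17.7 and 21.4 in WS24, 132, 261 and 165 in WW48, and 24.2, 27.7 and 27.8 in WS48. Gh_D09G1681 had 31.3, 57.4 and 32.4 CPM in WW24, 29.4, 33.4 and 33.5 in WS24, 131, 322 and 111 in WW48, and 38.6, 43.4 and 38.5 in WS48. In both genes the stressed libraries lay within or below the WW24 range and below every WW48 library. Their log2 fold changes in WS48/WW48 were -2.80 ± 0.34 (edgeR adjusted p = 0.000255) and -2.23 ± 0.36 (edgeR adjusted p = 0.00169). Of the 11 members that met the rule without WW48 replicate 2, 8 had a mean stressed level between the watered groups. The following 2 of them are named after their values were seen. Gh_A05G1352 had 9.05, 20.8 and 7.71 CPM in WW24, 23.5, 19.5 and 19.9 in WS24, 61.6, 152 and 67.0 in WW48, and 25.6, 26.6 and 27.2 in WS48. It was lower in WS48/WW48 by -1.82 ± 0.37 (edgeR adjusted p = 0.00671). Gh_D06G0837 had 2.45, 3.16 and 2.75 CPM in WW24, 3.63, 3.72 and 4.76 in WS24, 11.6, 21.4 and 12.3 in WW48, and 3.83, 2.31 and 3.17 in WS48. It was lower in WS48/WW48 by -2.27 ± 0.27 (edgeR adjusted p = 0.000251), and the WS48/WW48 calls of Gh_A05G1352 and Gh_D06G0837 stood in all 20 alternative settings. Over the 41 members, log2 fold changes in WS48/WW48 ran from -5.95 in Gh_A08G2028 to -1.30 in Gh_D10G2363, and in WS24/WW24 from -3.63 in Gh_D09G0706 to 3.30 in Gh_A13G1488.

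The 8 members that were higher in WS24/WW24 and not lower in WS48/WW48 carried no function in the sources used here. They too were singled out after their values were seen. Gh_A08G1031 had 15.5, 30.9 and 14.7 CPM in WW24, 67.0, 56.9 and 66.5 in WS24, 65.5, 122 and 49.9 in WW48, and 80.2, 95.0 and 86.2 in WS48. Every WS24 library lay above every WW24 library, and the WS48 libraries fell within the WW48 range. Its log2 fold change was 1.65 ± 0.33 in WS24/WW24 (edgeR adjusted p = 0.00611) and 0.14 ± 0.31 in WS48/WW48 (edgeR adjusted p = 0.799). Gh_D08G1309 had 14.4, 42.3 and 13.8 CPM in WW24, 65.1, 59.4 and 72.5 in WS24, 78.5, 129 and 57.0 in WW48, and 88.3, 84.7 and 89.8 in WS48. It was higher in WS24/WW24 by 1.49 ± 0.39 (edgeR adjusted p = 0.0237), a call lost in 6 of 20 alternative settings. Gh_D08G2533 had 4.65, 8.18 and 4.59 CPM in WW24, 23.9, 23.4 and 21.8 in WS24, 18.0, 41.8 and 23.1 in WW48, and 22.2, 36.0 and 17.0 in WS48. Gh_A08G0809 had 0.612, 2.01 and 1.19 CPM in WW24, 8.38, 7.64 and 9.42 in WS24, 6.26, 11.0 and 2.86 in WW48, and 8.80, 13.3 and 6.23 in WS48. It was the member whose stressed level lay above WW48, at a place of 1.20. Gh_D08G2533 and Gh_A08G0809 were higher in WS24/WW24 by 2.01 ± 0.36 (edgeR adjusted p = 0.00332) and 2.76 ± 0.51 (edgeR adjusted p = 0.00389), and kept that call in all 20 alternative settings, as did Gh_A08G1031.

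The other 4 of the 8 were also called higher in WS24/WW24. Their log2 fold changes in WS48/WW48 ran from -1.11 in Gh_D05G1929 to -0.82 in Gh_A12G0052. None of these passed, which does not show that WS48 equalled WW48. Gh_D05G1929 had 0.979, 0.861 and 0.826 CPM in WW24, 3.63, 2.96 and 3.85 in WS24, 3.18, 12.1 and 8.50 in WW48, and 2.58, 6.05 and 2.11 in WS48. Gh_A12G0052 had 1.59, 3.73 and 1.74 CPM in WW24, 9.03, 5.25 and 7.39 in WS24, 9.55, 28.9 and 10.9 in WW48, and 6.70, 13.6 and 7.08 in WS48. In both, WS24 lay wholly above WW24 and WS48 overlapped WW48. Gh_A05G1430 had 1.22, 1.00 and 0.642 CPM in WW24, 3.82, 4.01 and 3.44 in WS24, 1.85, 9.64 and 4.08 in WW48, and 2.68, 1.87 and 3.59 in WS48. Gh_D05G2281 had no read in WW24 replicate 1 and 0.717 and 0.275 CPM in replicates 2 and 3, against 2.89, 2.77 and 4.86 in WS24, 0.719, 13.0 and 4.08 in WW48, and 3.06, 2.58 and 2.85 in WS48. The log2 fold changes of these 4 in WS24/WW24 ran from 1.65 in Gh_A12G0052 to 3.44 in Gh_D05G2281 (edgeR adjusted p from 0.0297 to 0.0472), and each call was lost in 4 to 8 of 20 alternative settings. The member called in both comparisons, Gh_A06G0719, had 1.22, 1.58 and 0.826 CPM in WW24, 3.07, 2.87 and 2.94 in WS24, 4.83, 9.33 and 5.46 in WW48, and 2.30, 1.96 and 3.27 in WS48. Its stressed libraries lay wholly between the watered groups, with log2 fold changes of 1.32 ± 0.35 in WS24/WW24 (edgeR adjusted p = 0.0263) and -1.37 ± 0.31 in WS48/WW48 (edgeR adjusted p = 0.0108). The members higher in WS24/WW24 numbered 5 without WW24 replicate 1, and 3 without WW24 replicate 3 or any single WS24 library. Over all genes those higher numbered 1626 without WW24 replicate 1 and 1403 without WW24 replicate 3. Without WS24 replicate 1, 2 or 3 they numbered 1190, 1148 and 1194, against 1647 with all libraries. Members lower in WS24/WW24 numbered 3 without WW24 replicate 2, 1 without WS24 replicate 1, and 2 without WS24 replicate 2 or 3. Over all genes those lower numbered 1585, 1363, 1248 and 1394 in these settings, against 2165 with all libraries. The 10 members that passed neither test had log2 fold changes of -2.40 to -0.94 in WS48/WW48 (edgeR adjusted p from 0.0601 to 0.221) and -0.41 to 2.25 in WS24/WW24.

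The comparisons the rule used gave the following values, as a description. In WW48/WW24, 58 of 60 members were called higher, against 3.53% of all genes tested, all but Gh_D09G0453 and Gh_D09G1869, and 0 were lower, against 1.26%. The median log2 fold change was 2.38. Without WW24 replicate 1 the count of members called higher was 36, where 655 of 45279 genes tested were. Without WW24 replicate 3 it was 31 (555 of 45110 genes), and without WW48 replicate 2 it was 32 (489 of 44842 genes). With all libraries 1553 of 43938 genes were called higher. In WS48/WS24, 0 members were higher and 0 lower, against 0.127% and 0.255%, with log2 fold changes from -0.48 to 0.64, and 0 members had an unadjusted p under 0.05. DESeq2 called 0 members there as well, where it called 571 genes higher and 289 lower of 43938. The rule's limit of 0.5 on the stressed ratio left little room for such calls, so these counts support nothing. The difference between the stressed and the watered change over time passed edgeR's test in 0 members and in 0 of the 43938 genes (0.0%), the lowest adjusted p being 0.0664. It had an unadjusted p under 0.05 in 56 members, and the fitted differences ran from -6.82 to -1.50. Without WW24 replicate 2, 41 members passed, where 1059 of 45141 genes tested did so in that direction.

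Markers of other root tissues moved with the groups. The list of xylem and lignin genes (10 genes, 0 of them members) summed to 233, 964 and 327 CPM in the WW24 libraries, 33.2 to 49.9 in WS24, 1038, 1417 and 739 in WW48, and 85.6 to 148 in WS48. Like the members' sum, it was higher in WW24 replicate 2 than in the other WW24 libraries, and highest in WW48 replicate 2. Gene by gene, 0 of the 10 were called higher in WW48/WW24 (median log2 fold change 0.54), 10 were lower in WS24/WW24 and 6 were lower in WS48/WW48. Unlike the members' sum, which lay within the range of WW24 under stress, the sum of this list lay below every WW24 library in all stressed libraries. The members' sum mixes patterns: by place, the stressed level lay below WW24 in 17 members, between the watered levels in 42 and above WW48 in 1. The list of phloem genes (27 genes, 1 without any read) summed to 115 to 186 CPM in WW24, 99.8 to 111 in WS24, 161 to 221 in WW48 and 104 to 112 in WS48. Of its 19 genes tested, 4 were lower and 0 higher in WS24/WW24, and 5 were lower and 0 higher in WS48/WW48. In WW48/WW24, 3 of them were higher and 0 lower. The list of root hair genes (5 genes) summed to 193 to 604 CPM in WW24, 131 to 185 in WS24, 254 to 413 in WW48 and 159 to 207 in WS48. Most of its genes went against these sums, with 3 higher and 2 lower in WS24/WW24 and 3 higher and 0 lower in WS48/WW48. The sums of the list of genes of dividing cells (11 genes) went the other way, with 420 to 456 CPM in WW24, 989 to 1068 in WS24, 298 to 346 in WW48 and 792 to 946 in WS48. Not all its genes did so, with 6 higher and 2 lower in WS24/WW24 and 7 higher and 2 lower in WS48/WW48. The root cap gene lay between 0.717 and 2.57 CPM in all watered libraries and between 6.03 and 8.76 in all stressed ones. The 3 photosynthetic genes summed to 12.1 CPM or less in every library. The study chose most genes of these lists on these samples, and the part of tissue makeup in the members' levels was not tested.

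By their IDs, 32 members lay in the A subgenome and 28 in the D subgenome. Chromosomes A08 and D08 held 12 members (20.0%), where they held 8.10% of the genes tested, and A05 and D05 held 11 (18.3%), where they held 11.9%. Of the annotated members, both glutamate dehydrogenase genes and the peroxidase gene were on A08 or D08. So were 4 of the 8 members higher in WS24/WW24 and not lower in WS48/WW48. Reads of near-identical genes on paired chromosomes may be shared, so these members may not be independent of each other.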

How the data were processed

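Single-end reads had been mapped by the authors with HISAT2 1.0 on genome build NAU-NBT v1.1 and counted over exons with HTSeq 0.6.1 (versions from the submitters' processing notes). They deposited whole-number counts per gene, and beside them TMM-normalized values rounded to whole numbers (a score), which were not used. The lines that name no gene held 31.2% to 39.1% of reads and were left out. Library preparation kept the strand. Whether the counting used it is not stated, and reads of antisense or near-identical genes may be shared.

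Tests were run on the counts with edgeR 4.0.16 and limma 3.58.1 under R 4.3.3 (default filter, TMM, quasi-likelihood, 1 model of 12 libraries), with Benjamini-Hochberg adjustment. Alternatives were DESeq2 1.42.0, other scalings, no filter, a replicate block, the compared groups alone, and each library left out. 2 settings without replicate 2 were added after seeing the data.

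The members and gene lists were chosen with earlier results of these data known. Functions came from the study's supplementary lists (1767 genes). Named were members with a function, the 5 with the highest WW48 mean, the 5 with the largest watered ratio, genes at the rule's limits, and members called lower in WS24/WW24 or higher in WS48/WW48. Others were named after their values were seen. Depth was 6433993 to 11316010 counts in genes. Library size alone as the scale would shift the median log2 difference over all genes by 0.15 in WS24/WW24 and 0.13 in WW48/WW24.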

Additional observations from a re-analysis of the deposited data

Results flagged for a closer look

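In 6 members every WS24 library lay above every WW24 library and every WS48 library lay below every WW48 library. The stress effect thus had opposite signs at the 2 times. Over all genes tested, 18.3% met the first condition and 20.7% the second, and the share that met both was not computed. The rule asked for low WW24 and high WW48 values, which favours this pattern, so the count supports nothing. The stress effect at 48 h minus that at 24 h, on the log2 scale, was -4.70 in Gh_A04G1054, -2.69 in Gh_A06G0719, -2.16 in Gh_A11G1718, -2.49 in Gh_D01G0713, -2.81 in Gh_D06G0837 and -2.01 in Gh_D11G2440. The difference did not pass edgeR's test in any of them (edgeR adjusted p = 0.188, 0.0866, 0.0963, 0.122, 0.0664 and 0.128, in the same order), and the rule that chose the members fixes its sign. Gh_D01G0713, which carries no function in the sources used here, had 6.73, 4.74 and 6.97 CPM in WW24, 12.7, 10.5 and 8.40 in WS24, 29.4, 62.4 and 29.6 in WW48, and 8.04, 18.2 and 10.2 in WS48.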

How the results depend on the processing

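With 3 libraries a group, counts of called members moved with single libraries. Over the 12 sets that leave out 1 library, the count of members higher in WS24/WW24 ran from 3 to 13 and of those lower from 1 to 7. In WS48/WW48 those lower ran from 29 to 49 and those higher stayed at 0. In WS48/WW24 those higher ran from 4 to 13 and those lower from 2 to 5, in WW48/WW24 those higher ran from 31 to 60, members with a lower stressed change over time ran from 0 to 41, and the rule found 12 to 152 genes. The median place of the stressed level stayed between 0.159 and 0.290. All 30 members lower in WS48/WW48 without WW48 replicate 2 were among the 42. Calls over all genes moved over the 12 sets as well. Those higher in WS24/WW24 ran from 1148 to 2110, those lower in WS48/WW48 from 1580 to 3650, and those higher in WW48/WW24 from 489 to 4359.

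With replicate 2 left out of every group, 16 members were higher in WS24/WW24 and 18 in WS48/WW24. A lower stressed change over time was called in 42. Over all genes these counts were 2236, 2353 and 1092 of 43783, against 1647, 1569 and 0 of 43938 with all libraries. The rule then found 145 genes, 24 of them members. With replicate 2 left out of WW24 and WW48, the same counts were 17, 21 and 39, against 2306, 2800 and 767 of 44557 genes. In WS48/WW48 1 member was then higher, where 1727 genes were. Scaling by library size alone gave 10 members higher in WS48/WW24, where 2265 of 43938 genes were. It gave 1 member with a lower stressed change over time, where 5 genes passed. No filter on low counts also gave 1 such member, where 7 of 60201 genes passed. With the compared groups alone, 15 members were higher in WW48/WW24, where 303 of 41071 genes were. With all groups in the model 1553 of 43938 genes were. The cause of these shifts was not tested.

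Deviations from the group means correlated at -0.18 to 0.38 over 18 pairs of libraries with the same replicate number, 6 of them over 0.1, and at -0.45 to 0.39 over 36 pairs with different numbers, so the numbers were not taken to pair the samples. Replicates 2 of WW24, WW48 and WS48 correlated at 0.14 to 0.38. With the replicate block 7 members were lower in WS48/WW24, where 1683 of 43938 genes were. The other counts stayed within 1.5 times under every alternative, and no named log2 fold change reversed. Levels near 1 CPM rest on few reads, and small differences there may not be detectable at this depth.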
